A study of Mus musculus with 9 samples.

Results

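The genes described are 10 antiviral genes that type I interferon induces: Ddx58, Ifih1, Irf7, Isg15, Ifit1, Ifit2, Ifit3, Oasl2, Mx1 and Rsad2. They were chosen by symbol, and all 10 were found among the 14905 genes of the deposited table. RNA was sequenced from macrophages of mouse visceral fat, sorted as cells carrying both F4/80 and CD11b. The mice were Nucb2-/- (KO, 5 libraries) or wild type (WT, 4 libraries). Both groups were on a C57BL/6 background, and age, sex and diet are not given in the sample labels. The name of the deposited table carries the letters HFD, which the labels do not explain. The disrupted gene codes for nucleobindin-2, a calcium-binding precursor of nesfatin-1. The labels do not say whether the disruption was restricted to a cell type, or whether a separate mouse stands behind each library. The p-values therefore describe the spread between libraries, which may be partly technical.

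Type I interferons are secreted when sensors inside a cell meet foreign or misplaced nucleic acid. They bind the receptor made of Ifnar1 and Ifnar2 on the same or neighbouring cells, and the kinases Jak1 and Tyk2 then activate a transcription factor complex that contains Irf9 and binds interferon-stimulated response elements in gene promoters. Macrophages hold these genes at a low tonic level in the absence of infection. Interferon gamma uses another receptor, and its targets overlap in part with those of type I interferon.

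The response element is shown because it is a sequence feature that the choice of genes by symbol did not use. RefSeq promoter windows (GRCm38.p6, 250 bases before to 50 after each gene's start) matched 9 of the 10 genes; Mx1 was not matched. The core searched was GAAA, any 2 bases and GAAA, or TTTC, any 2 bases and TTTC where it reads from the opposite strand. It was found in 6 of the 9 (66.7%), against 3.84% of the 11283 genes of the deposited table that have a window. The 4 stretches below lie before the start site, are written 5′ to 3′ on the gene's own strand, and have the core matches in capitals.
Ifit1 (chr19:34640775-34640823, plus strand): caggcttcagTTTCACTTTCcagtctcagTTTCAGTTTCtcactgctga
Ifit3 (chr19:34583363-34583426, plus strand): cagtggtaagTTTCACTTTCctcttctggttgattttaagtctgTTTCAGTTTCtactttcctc
Isg15 (chr4:156200865-156200906, minus strand): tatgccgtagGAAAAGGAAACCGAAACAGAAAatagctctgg
Rsad2 (chr12:26456553-26456582, minus strand): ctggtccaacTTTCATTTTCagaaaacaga
Ifit1 and Ifit3 each carry 2 matches, Rsad2 carries 1, and Isg15 carries 3 that overlap each other. The matches of Ifih1 and Ddx58 lie after the start site, and Ifit2, Oasl2 and Irf7 had none of these letters in their windows. The core was also found in 9 of 11 genes of the interferon gamma type (81.8%) and 22 of 47 other interferon-stimulated genes (46.8%), so it is not particular to the 10 genes. A match is a description of sequence and was not tested as a binding site.

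The deposited values are read counts divided by a factor for each library, called normalized counts here. Multiplying back by that factor gave 51148962 to 85200125 reads per library. Means are given ± SD over the 5 KO and 4 WT libraries unless stated. Adgre1, which encodes F4/80, averaged 91199 ± 5642 normalized counts over KO libraries and 106114 ± 8809 over WT libraries, and Itgam, which encodes CD11b, 23739 ± 1945 in KO and 20943 ± 1097 in WT. Nucb2 itself was at 1499.7 ± 219 in KO and 4313 ± 790.5 in WT, without overlap between the groups (limma adjusted p = 5.39e-04). Over the whole table, 46 genes (0.309%) lay under an adjusted p of 0.05 in limma, a moderated linear model fitted to log2 of the normalized count plus 1. WT replicate 3 stood apart on genes of the interferon gamma type, such as the guanylate-binding proteins. All 16 measured genes of that type were highest of the 9 libraries there, against 10.9% of all genes. Their sum was 247638 in that library against 38016 to 111940 in the other 8. Values without WT replicate 3 are given beside the results below.

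Of the 10 antiviral genes, 0 rose and 0 fell between genotypes by the limma test, where 0.181% of all genes rose and 0.127% fell. At an unadjusted p under 0.05 the count was also 0 of 10, where 9.14% of all genes lay under that value, and limma-voom on the worked-out reads called 0 of 10 as well. The KO and WT values overlapped for all 10, whereas they did not overlap for 3.15% of all genes. The log2 differences, KO minus WT, lay between -0.30 for Ifih1 and 0.69 for Ifit3, with 6 above 0, 4 below 0 and a median of 0.11, beside a median of 0.02 over all genes; Mx1 lay below 0 with quantile normalization (-0.0023) and Oasl2 above 0 in limma-voom (0.05). Without WT replicate 3, 7 lay above 0, the median was 0.19, and again 0 passed. Without that library the log2 difference was 0.97 for Ifit3, 0.49 for Ifit2, 0.46 for Ddx58, 0.44 for Ifit1 and 0.29 for Irf7. It was 0.08 for Oasl2, 0.03 for Isg15, -0.10 for Rsad2, -0.15 for Ifih1 and -0.17 for Mx1, with limma adjusted p-values between 0.512 and 0.977. For 9 of the 10 genes the 95% interval of the difference lay wholly between -1 and 1 on the log2 scale; the exception was Ifit3, whose interval reached 1.46. Because RNA was pooled over many sorted cells, fewer cells with the transcript and less transcript per cell cannot be told apart.

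**Figure D1:**
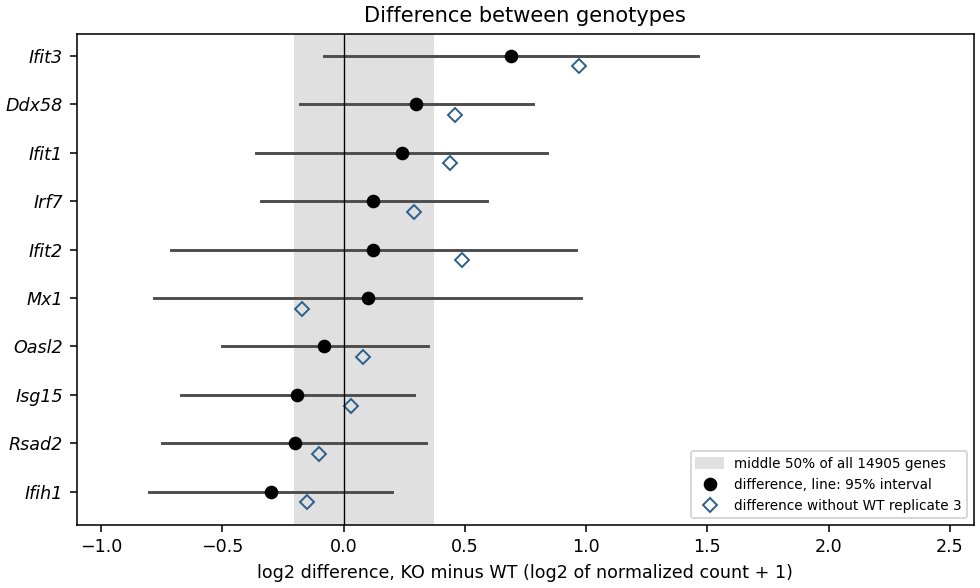
Log2 difference of each antiviral gene, KO minus WT, as points with 95% intervals (limma, 5 KO and 4 WT libraries), with the difference without WT replicate 3 as open diamonds; the grey band spans the middle 50% of all genes, from -0.20 to 0.37. Each interval includes 0, and the diamond of Mx1 lies on the other side of 0 from its point, as do those of Isg15 and Oasl2.

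The RNA sensors come at the head of the pathway. Ddx58 encodes RIG-I, a cytosolic helicase that binds RNA ends carrying a triphosphate. It lies on chromosome 4 (40203773 to 40239828, minus strand, GRCm38). In KO libraries it had 1826, 1339, 1045, 1715 and 1911 normalized counts, and in WT libraries 1118, 1233, 1741 and 999.9. KO replicates 1, 4 and 5 and WT replicate 3 were high, and the remaining 5 libraries of both genotypes were low. The fold of KO over WT was 1.23 (95% interval 0.88 to 1.72; limma adjusted p = 0.739).

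Ifih1 encodes MDA5, the related helicase that binds long double-stranded RNA. It lies on chromosome 2 (62595798 to 62646255, minus strand) and had 1130.2, 2322, 1604, 1284 and 2154 normalized counts in KO, against 1663, 1654, 2740.3 and 2184 in WT. Its highest library was WT replicate 3 and its lowest KO replicate 1, which was the second highest for Ddx58. The fold was 0.81 (95% interval 0.57 to 1.15; limma adjusted p = 0.744), the largest difference below 0 among the 10.

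Dhx58, a regulator of both helicases, had 1183 ± 296 in KO and 1202 ± 242 in WT, and Mavs, the mitochondrial adaptor they share, had 1581 ± 414 in KO and 1584 ± 118 in WT. Of 19 listed sensors and adaptors, 0 passed in either direction (limma). The smallest adjusted p in that list was that of Tlr7, the endosomal receptor for single-stranded RNA, at 5969 ± 714 in KO and 7358 ± 871 in WT (log2 difference -0.30, limma adjusted p = 0.398, and -0.24 without WT replicate 3). Zbp1, a sensor of Z-form nucleic acid, averaged 1448 ± 228 in KO and 2447 ± 1330 in WT, with 4294 in WT replicate 3. Its log2 difference was -0.62 with that library and -0.30 without it (limma adjusted p = 0.513 and 0.755).

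Irf7 is the transcription factor that switches on most interferon alpha genes and is itself induced by interferon. It had 4299, 2391, 3879, 2497 and 3318 normalized counts in KO and 2135, 2364, 4177 and 3499 in WT. Each genotype held both high and low libraries: KO replicates 1 and 3 and WT replicate 3 lay near each other at the top, and KO replicates 2 and 4 and WT replicates 1 and 2 at the bottom. The fold was 1.09 (95% interval 0.79 to 1.5; limma adjusted p = 0.893). Irf7 (chromosome 7, 141262706 to 141266481, minus strand) overlaps Phrf1, a gene annotated on the opposite strand, and the use of strand in counting is not given in the sources used here.

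Ifit1, Ifit2 and Ifit3 encode tetratricopeptide proteins that bind foreign RNA and act in complexes with each other. They lie within 99.3 kb of chromosome 19, with Ifit2 from 34550694 to 34576419, Ifit3 from 34583531 to 34588731 and Ifit1 from 34640871 to 34650009 (GRCm38, all on the plus strand). Ifit1 had 1429, 1396, 609.5, 1235 and 1461 normalized counts in KO against 812.6, 923.4, 1490.3 and 859.4 in WT. In all KO libraries but replicate 3 it was above all WT libraries but replicate 3, and those 2 libraries held the lowest and the highest of the 9 values. The fold was 1.18 (95% interval 0.78 to 1.79; limma adjusted p = 0.834).

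Ifit2 had 1346, 1204, 2961, 1371 and 1141 normalized counts in KO and 550.3, 1184, 2938 and 1855 in WT. KO replicate 3 and WT replicate 3 stood alike at the top, and WT replicate 1 alone at the bottom. Its fold was 1.09 (95% interval 0.61 to 1.95; limma adjusted p = 0.944), and the log2 difference went to the other side of 0 without KO replicate 3 (-0.12) or without WT replicate 1 (-0.31).

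Ifit3 had the largest difference of the 10 genes. It had 3353, 1169, 2132, 1134 and 1809 normalized counts in KO, against 1159, 519.3, 1985 and 1202 in WT. KO replicates 1, 3 and 5 and WT replicate 3 were high, KO replicates 2 and 4 lay beside WT replicates 1 and 4, and WT replicate 2 was lowest. The fold was 1.61 (95% interval 0.94 to 2.75; limma adjusted p = 0.599), and without WT replicate 3 the log2 difference was 0.97 (adjusted p = 0.512). The nearby gene Ifit3b is a near copy: 51.2% of the 50-base windows of the longest Ifit3 transcript occur unchanged in a transcript of Ifit3b. How reads shared by such copies were counted is not given in the sources used here, so the level of Ifit3 is uncertain. Ifit3b averaged 426.5 ± 80.5 over KO libraries and 344.5 ± 114 over WT libraries, with a limma adjusted p of 0.813.

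Isg15 encodes a ubiquitin-like protein that is joined to other proteins and is also secreted. It lies on chromosome 4 (156199424 to 156200818, minus strand) and had 1253, 1316, 1714, 1141 and 1404 normalized counts in KO and 1486, 1108, 2468 and 1408 in WT. The KO libraries and 3 of the WT libraries shared a narrow range, and WT replicate 3 stood above them. The fold was 0.87 (95% interval 0.63 to 1.22; limma adjusted p = 0.833), and without WT replicate 3 the log2 difference was 0.03.

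Oasl2 encodes a mouse relative of the oligoadenylate synthetases that carries ubiquitin-like domains. It lies on chromosome 5 (114896936 to 114912234, plus strand) and had 5507, 4427, 5584, 5487 and 3992 normalized counts in KO against 5735, 3082, 7245 and 5833 in WT. The WT libraries held both the highest and the lowest value, in replicates 3 and 2, and the KO libraries all lay between them. The fold was 0.95 (95% interval 0.71 to 1.27; limma adjusted p = 0.927).

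Rsad2 encodes viperin, an enzyme that makes a nucleotide analogue able to stop viral RNA synthesis. It lies on chromosome 12 (26442746 to 26456452, minus strand) and had 2079, 1077, 1352, 743.5 and 1379 normalized counts in KO and 1309, 1288, 1800.3 and 1429.5 in WT. KO held the highest and the lowest library, replicates 1 and 4, with the WT libraries in between. The fold was 0.87 (95% interval 0.60 to 1.27; limma adjusted p = 0.843).

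Mx1 encodes a dynamin-like GTPase that blocks influenza viruses, and the allele of C57BL/6 mice is known to be defective. It lies on chromosome 16 (97447035 to 97462907, minus strand) and had 261.9, 397.9, 366.4, 567.5 and 266.0 normalized counts in KO and 378.4, 537.8, 191.0 and 315.1 in WT. The order of libraries was unlike that of the other genes: WT replicate 3 was lowest, and KO replicate 4 and WT replicate 2, low for most of the other members, were highest. The fold was 1.07 (95% interval 0.58 to 1.97; limma adjusted p = 0.956). Without WT replicate 3 the log2 difference was -0.17.

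**Figure D2:**
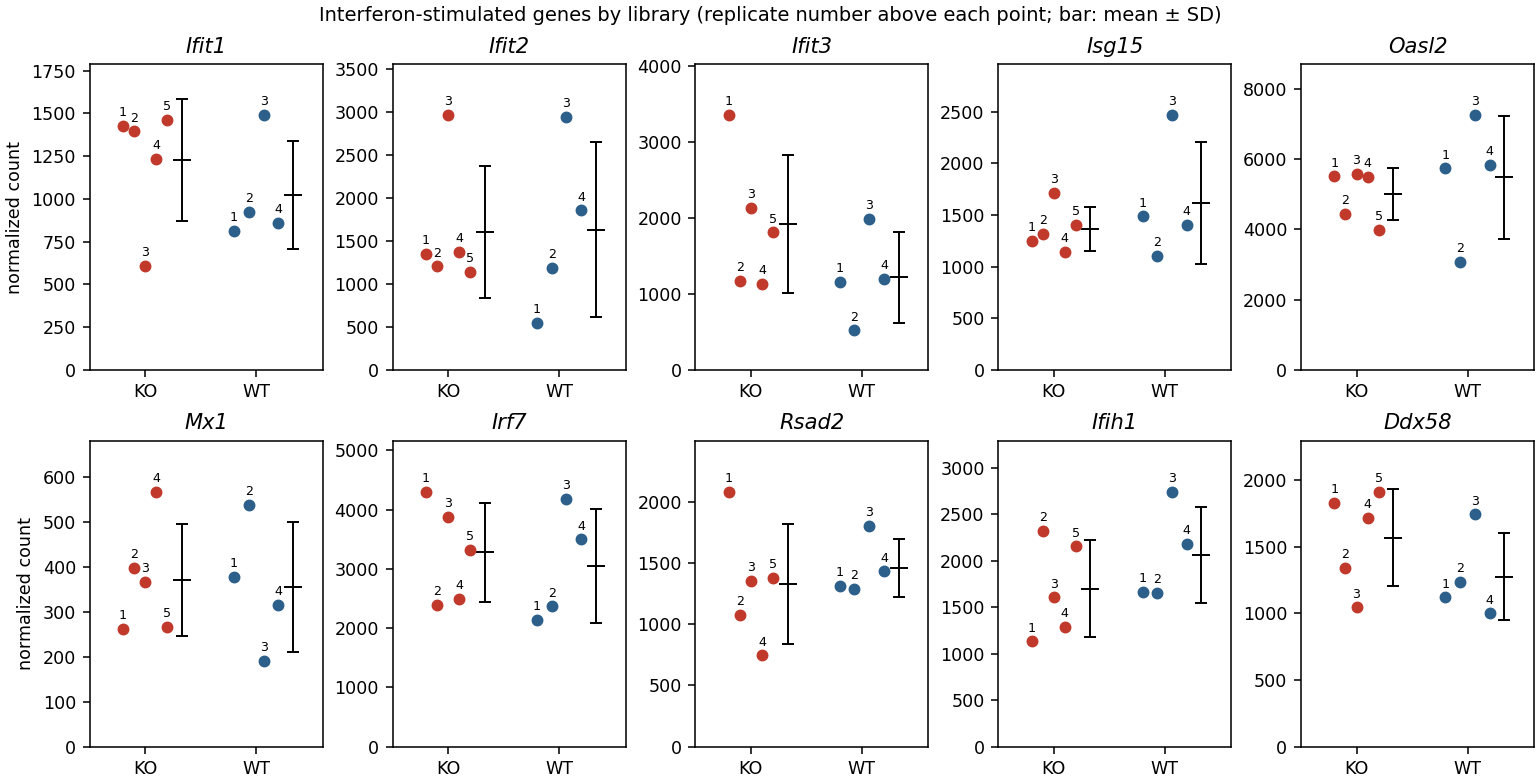
Normalized counts of the 10 antiviral genes by library, KO (red) left of WT (blue), with the replicate number above each point and the mean ± SD as a black bar beside each group. KO and WT points overlap in each panel, and WT replicate 3 is the highest WT library in 9 of the 10 panels and the lowest in that of Mx1.

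To compare genes, levels were divided by the length of their merged exons over all transcripts in GENCODE M21. That length exceeds the longest single transcript for some genes and not for others. It was 6374 bases for Oasl2 and 8165 for Ifih1, whose longest transcripts have 3123 and 5470. For Ifit3 both lengths were 1745. The order below therefore depends on the length used, and no other length was tried. Per kilobase, over all 9 libraries, Isg15 was highest at 1954 ± 548 normalized counts (SD, n = 9). Ifit3 (921 ± 474), Irf7 (840 ± 224) and Oasl2 (817 ± 190) followed as a group whose neighbours did not differ beyond their spread: Ifit3 was above Irf7 in 6 of 9 libraries and Irf7 above Oasl2 in 5. Oasl2 was above Ifit1 in all 9 libraries. Ifit1 (427 ± 126), Ifit2 (412 ± 210) and Rsad2 (319 ± 88.6) came next, each above the following gene in 6 of 9 libraries, apart from Rsad2, which was above Ifih1 in 8. Ifih1 (228 ± 64.1) and Ddx58 (204 ± 51.2) differed by less than their spread, and Mx1 was lowest at 96.3 ± 33.1, below Ddx58 in all 9. In mean normalized count without regard to length, the 10 genes stood between percentiles 40.1 (Mx1) and 86.8 (Oasl2) of all genes. No value of the 10 genes was at the floor of the table, and the lowest of their values rested on 151 reads.

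Within a genotype most of the antiviral genes varied more than the median gene of their level. Among KO libraries their coefficient of variation lay between 14.8% and 47.6%, with a median of 29.9%. Genes whose mean was between 0.5 and 2.0 times that of the member had median values of 12.9% to 36.9%, and 8 of the 10 members lay above that median; Isg15 and Mx1 lay below it. Among the WT libraries the coefficient of variation was between 16.3% and 62.6%, with a median of 31.6%, and 9 of the 10 lay above the median of genes of similar mean, all but Rsad2. It was larger in WT than in KO for 8 genes and smaller for Rsad2 and Ifih1. The median SD of the 10 genes on the log2 scale was 0.46 in KO and 0.47 in WT, against 0.33 and 0.34 over the 11383 genes with a mean of at least 100. Without WT replicate 3 it was 0.30 among the remaining WT libraries, against 0.32 over those genes. The ratio of the highest to the lowest library of a genotype was largest for Ifit2 in WT, at 5.34, and for Ifit3 in KO, at 2.96. For each of the 10 genes the difference between the genotypes was smaller than the larger of its within-group SDs on the log2 scale.

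**Figure D3:**
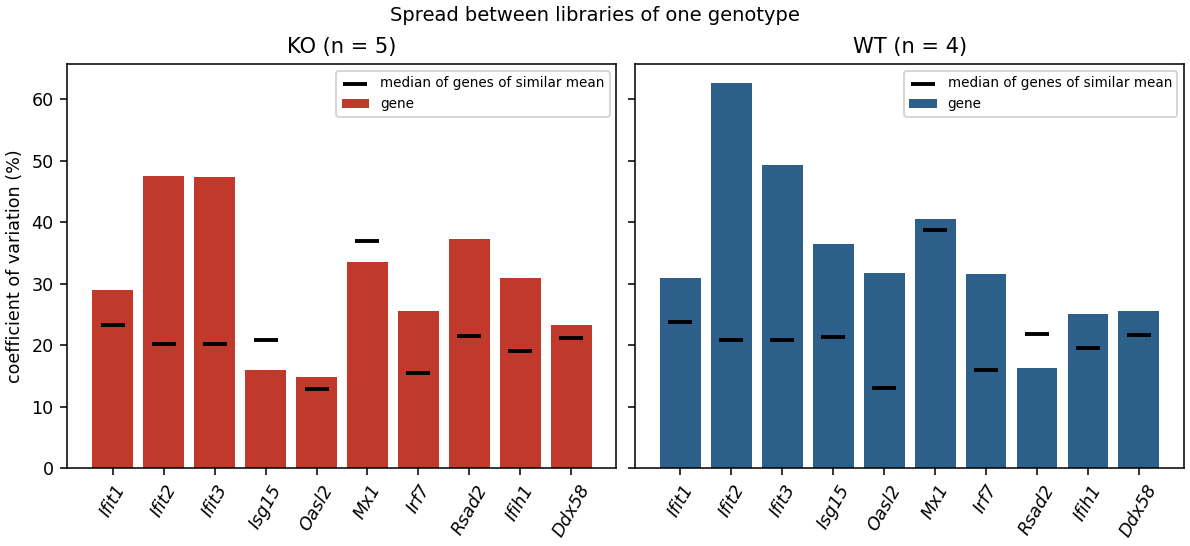
Coefficient of variation of each antiviral gene among the 5 KO libraries (left, red bars) and the 4 WT libraries (right, blue bars), with the median of genes of similar mean as a black dash. Most bars rise above their dash, and the tallest is Ifit2 in WT at 62.6%.

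The libraries shared part of this variation. Relative to each gene's mean over all 9 libraries, the median of the 10 genes was 0.25, -0.16, 0.11, -0.18 and 0.08 on the log2 scale in KO replicates 1 to 5, and -0.20, -0.26, 0.47 and 0.04 in WT replicates 1 to 4. The same median over all genes lay between -0.01 and 0.03. WT replicate 3 was the highest of the 9 libraries for 4 genes and the highest of the WT libraries for 9. Over all genes these shares were 10.9% and 25.7%. The sum over the 10 genes was 19357 ± 2437 in KO and 19150.0 ± 5593 in WT, with 26777 in WT replicate 3 and 13893 in WT replicate 2.

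After each gene was centred on the mean of its genotype, the 45 pairs of members had a median Pearson correlation of 0.19 over the 9 libraries, with 34 pairs above 0. It was -0.06 without WT replicate 3, with 21 pairs above 0, so the surplus of positive pairs rested on that library. These correlations are descriptions over libraries that differ in depth, and which of them were prepared together is not known. Some pairs were alike with and without it: Ifit1 with Ddx58 (0.88 and 0.82), Ifit3 with Irf7 (0.83 and 0.76), Ifit3 with Rsad2 (0.80 and 0.79) and Irf7 with Rsad2 (0.78 and 0.76). Ifit1 and Ifit2, which lie on the same stretch of chromosome 19 with Ifit3 and other genes between them, were at -0.09 with it and -0.60 without it. Mx1 was negative with each of the other 9 members, from -0.39 with Ifit2 to -0.88 with Ifit3, but not uniformly so without WT replicate 3: the correlation was then -0.83 with Ifit3 and with Rsad2, -0.14 with Ifit1, -0.09 with Ddx58 and 0.0 with Ifit2.

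**Figure D4:**
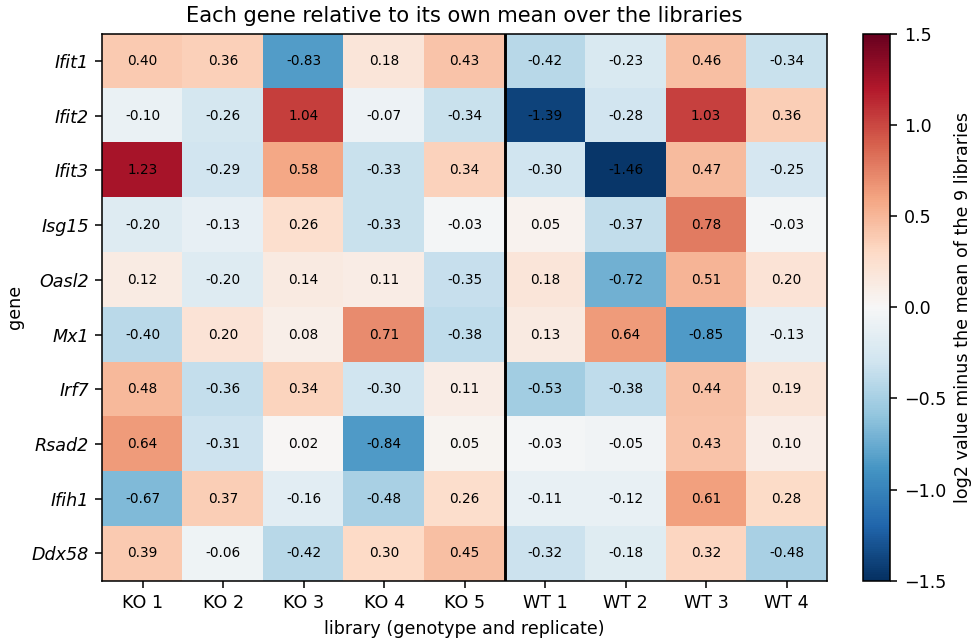
Log2 value of each antiviral gene (rows) in each library (columns, KO left of WT) minus the gene's own mean over the 9 libraries, red above and blue below that mean. The WT 3 column is red for 9 genes and blue for Mx1, and KO 1 is red for Ifit3 (1.23) and blue for Ifih1 (-0.67).

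By the measure of likeness used, the correlation with the mean of the centred and scaled members over 9 libraries, the 5 most similar genes of 11373 were Cxcl10 (0.99), Gm4070, AA467197, Gbp7 and Gvin1 (0.97 each). They were 0.94, 0.88, 0.87, 0.90 and 0.84 without WT replicate 3. Gm4070 and Gvin1 had nearly the same values in each library, such as 6370 and 6267 in WT replicate 3. They may therefore not count as separate genes, and shared reads were not examined for them. Cxcl10 encodes a chemokine for activated T cells, and Gbp7 a guanylate-binding protein. Cxcl10 averaged 4099 ± 704 over the KO libraries and 7103.5 ± 5547 over the WT libraries (limma adjusted p = 0.668), with 15196 in WT replicate 3 and 6223 in WT replicate 4. Its log2 difference was -0.52, and -0.06 without WT replicate 3. Of the 100 most similar genes, 19 were on the pathway lists, which supplied 115 of the 11373 genes ranked. The ranking used all 9 libraries, and this count was not made without WT replicate 3.

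Of the type I interferons, the ligands of the pathway, Ifnb1 (interferon beta) was measured and was close to the floor. It had between 1 and 38.6 normalized counts in KO and between 1 and 35.4 in WT, where 1 is the floor of the table, and the interferon alpha genes were not analysed here. The receptor genes Ifnar1 (11562 ± 1304 in KO, 12459 ± 276 in WT) and Ifnar2 (4061 ± 669 in KO, 4387 ± 1019 in WT) were well detected. Of the 6 measured genes of interferons and receptors, 0 passed in either direction in limma, with a median log2 difference of -0.10, and 0.05 without WT replicate 3.

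Of the 9 genes of receptor signalling, 0 passed in either direction (limma), and the list's median log2 difference was -0.05, and 0.03 without WT replicate 3. In that list 4 lay above 0 and 5 below, and 2 of the 9 had an unadjusted p under 0.05 in limma, against 9.14% of all genes. Stat2, a part of the type I complex, had 1545 ± 189 in KO and 1597 ± 189 in WT, and Irf9, the DNA-binding part, 3902 ± 402 in KO and 3629 ± 950 in WT. Irf2 and Irf1 differed by -0.27 and -0.30 (limma adjusted p = 0.335 and 0.55), and by -0.27 and -0.13 without WT replicate 3. Of 9 negative regulators 0 passed in either direction (median -0.09, and -0.05 without WT replicate 3). Ptpn6, the phosphatase SHP-1, was at 10037 ± 625 in KO and 12894 ± 1842 in WT, values that did not overlap (log2 difference -0.35 with and without WT replicate 3, limma adjusted p = 0.193 with it and 0.424 without it). Usp18, which removes Isg15 from proteins, had 1584 ± 502 in KO and 1641 ± 386 in WT.

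Among 59 other interferon-stimulated genes, 0 rose and 0 fell past the limma threshold, and the median log2 difference was -0.15. An unadjusted p under 0.05 in limma was found for 5 of the 59, against 9.14% of all genes. In that list 42 genes lay below 0 with all libraries and 36 without WT replicate 3, where the median was -0.05. Of all 14905 genes, 7096 lay below 0 with all libraries and 7161 without WT replicate 3. WT replicate 3 was the highest of the 9 libraries for 30 of the 59, against 10.9% of all genes. The smallest p belonged to Parp9, which works with Dtx3l in the interferon response, at 2277 ± 484 in KO and 3617 ± 1073 in WT (log2 difference -0.64, limma adjusted p = 0.304, and -0.56 without WT replicate 3). Slfn5, Znfx1 and Phf11b differed by -0.37, -0.51 and -0.49 (limma adjusted p = 0.33, 0.345 and 0.36), and by -0.28, -0.41 and -0.28 without WT replicate 3.

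The antiviral genes and the genes of the interferon gamma type differed in how far WT replicate 3 stood out. The level in that library over the mean of the other 3 WT libraries had a median of 1.56 over the 10 antiviral genes, from 0.47 (Mx1) to 2.46 (Ifit2). It had a median of 3.83 over the 16 genes of the interferon gamma type, from 1.39 to 6.32, a difference between lists that was described and not tested. Irgm1, an immunity-related GTPase, had 4128 ± 936 in KO and 9610 ± 7014 in WT, with 19578 in WT replicate 3 and 9412 in WT replicate 4. Its log2 difference was -0.98, -0.55 without WT replicate 3 and -0.22 in the 6 libraries of higher depth, which hold neither of those. Cxcl9, a chemokine gene that answers interferon gamma more than type I interferon, had 2567 ± 683 in KO and 11397 ± 11369 in WT (log2 difference -1.58, limma adjusted p = 0.256). That difference was -0.96 when WT replicate 3 was left out and -0.41 in those 6 libraries (limma adjusted p = 0.566 and 0.728). All 16 lay below 0 with all libraries (median -0.85, 0 passed) and 13 without WT replicate 3 (median -0.43, 0 passed). With all libraries 9 of the 16 had an unadjusted p under 0.05 in limma, against 9.14% of all genes. For 1 of the 16 the groups did not overlap, against 3.15% of all genes. These 2 counts were not made without WT replicate 3. In the 6 deeper libraries 10 lay below 0 and 6 above, with a median of -0.10.

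**Figure D5:**
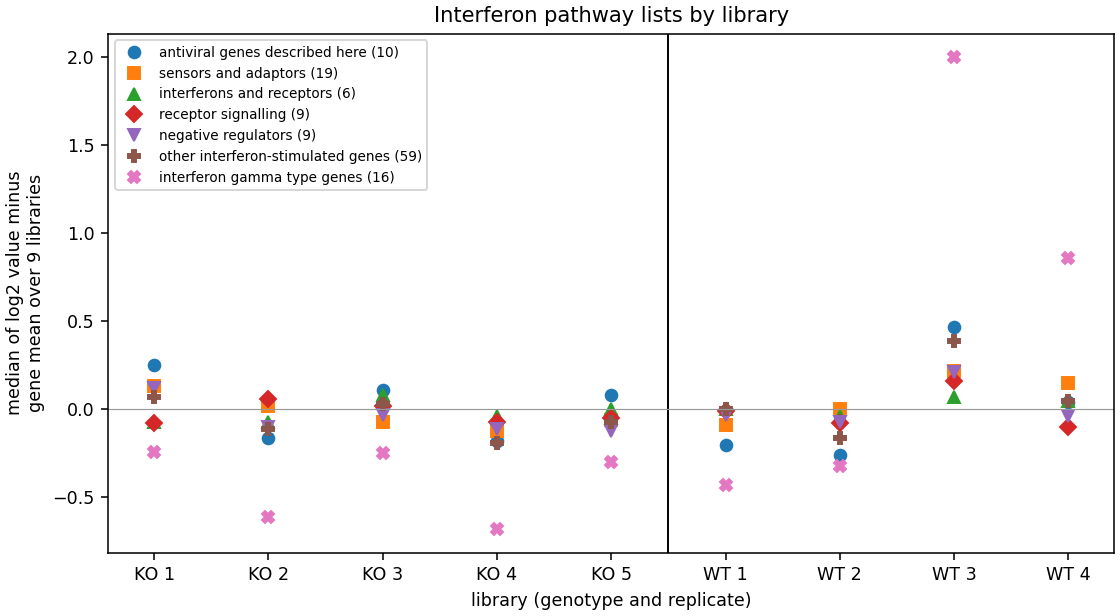
Median over each list of the log2 value minus the gene's mean over the 9 libraries, for the antiviral genes and 6 interferon pathway lists (number of genes in the legend), by library with KO left of WT. The genes of the interferon gamma type reach 2.0 in WT 3 and 0.86 in WT 4, while the antiviral genes reach 0.47 in WT 3.

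Of the 9 macrophage markers, 6 lay below 0 and 3 above (median log2 difference -0.03, 0 passed in limma). At an unadjusted p under 0.05 in limma there were 5 of the 9, against 9.14% of all genes. C1qa and Fcgr1, 2 of the 9, were lower in KO without overlap, against 3.15% of all genes. Their log2 difference was -0.50 for both (limma adjusted p = 0.0667 and 0.123). Markers of other cells were summed over each list. Plasmacytoid dendritic cells are strong interferon producers; their 6 measured markers summed to between 8307 and 10880.0 normalized counts in KO and between 7692 and 9248 in WT, with the lowest sum in WT replicate 3 and no marker at the floor throughout a genotype. That sum was mostly Tcf4 (8584 ± 1136 in KO and 7943 ± 690 in WT), which other cells also express. Siglech, the more specific marker, averaged 185 ± 120 over KO libraries and 89.2 ± 48.2 over WT libraries (limma adjusted p = 0.701). Those 2 genes were the only markers of the 6 above 0. The other 4 lay below 0, and the list's median log2 difference was -0.23 (0 passed). The 7 lymphocyte markers summed to 348 to 1186 in KO and 605 to 1506 in WT, with 1227 in WT replicate 3. The 7 monocyte markers summed to 109495 to 156638 in KO and 108339 to 120067 in WT, with 111678 in WT replicate 3. That monocyte sum was mostly Ccr2 and F13a1 (means 56363 and 41883 over all libraries). Marker by marker, the level in WT replicate 3 over the mean of the other WT libraries had a median of 1.56 for monocytes, from 0.66 to 2.19. For lymphocytes it was 1.63, from 0.05 to 37.95, with some values at the floor. Between genotypes, 7 mesothelial markers summed to 5412 to 17763 in KO and 1968 to 7242 in WT, and 6 mast cell markers to 1294 to 2646 in KO and 4891 to 8831 in WT, of which 4 fell (limma), or 2 without WT replicate 3, and Fcer1a was at the floor in every KO library. The 6 endothelial markers summed to 3378 to 6205 in KO and 1453 to 3038 in WT, without overlap, and all 6 lay above 0 (median log2 difference 1.29, 0 passed). The 8 dissociation genes summed to 165969 to 227508 in KO and 127696 to 178257 in WT, all 8 above 0 (median 0.41, 0 passed, 6 at an unadjusted p under 0.05 in limma). The 6 measured neutrophil markers summed to 2546 to 4336 in KO and 1990.0 to 2983 in WT (median 0.53, 0 passed), and Mmp9 among them did not overlap between genotypes. The 6 fibroblast and adipocyte markers summed to 231292 to 358205 in KO and 158105 to 270700.0 in WT (median 0.29, 0 passed). The part of these cells and of dissociation in the values of the antiviral genes was not tested. WT replicates 3 and 4 and KO replicate 5 were the 3 libraries of lower depth. Within the 6 deeper ones the log2 differences of Ifit3 and Ifit2 were 1.18 and 0.99 (limma adjusted p = 0.728 for both), and the median of the 10 was 0.31. In the 3 shallower libraries (1 KO and 2 WT, no test) the differences were 0.23 for Ifit3 and -1.03 for Ifit2.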

How the data were processed

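The members and lists were chosen with earlier results of these data known. Poly(A) RNA went into dUTP-stranded libraries, per the labels' protocols. Tools named without roles, per the submitters' processing notes, are HISAT, Partek, CASAVA 1.8.2 and DESeq2; the build is mm10. The authors deposited 1 signal value for each gene in each library: judged from the values, read counts over 1 factor per library, with values under 1 set to 1. Low values were whole multiples of a step in each library (tolerance 0.1 of a step). The lowest gene mean was 5.09, so low genes had been left out by the authors.

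The fit was limma 3.58.1 (R 4.3.3) on log2(value + pseudocount 1) with trend moderation and genotype as the only term, adjusted by Benjamini-Hochberg over 14905 genes at 0.05; the code was tested on simulated data. Folds on that scale understate changes of low genes. The labels do not say whether replicate numbers pair libraries. Same-numbered libraries had correlations of -0.014, 0.028, -0.003 and 0.045, which do not settle it. Named genes are Nucb2, the members, the 4 smallest p of each pathway list with a mean of at least 100, and the 5 most similar genes; other genes named (such as Dhx58, Mavs, Ifit3b, Ifnb1, Ifnar2, Stat2, Irf9, Usp18 and the Oas genes) were picked after their values were seen. Not each gene of the rule is described, and 1 is not reported here. Exon lengths and positions come from GENCODE M21. Counting intervals are not given, since spread between libraries exceeds counting error (8.1% at 151 reads). Figures used matplotlib 3.10.9.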

Additional observations from a re-analysis of the deposited data

Results flagged for a closer look

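In 80 groups of 4 or 5 libraries (40 genes, each in KO and in WT), 7 had a library far from the others of its group. For genes chosen without regard to their values, chance gives about 1 in 20. Many of the 40 were chosen by their p or by likeness to the members in these libraries, Gvin1 by likeness. That rate therefore cannot be applied to this set. Ifit1 had 609.5 normalized counts in KO replicate 3 (other KO libraries 1235 to 1461) and 1490.3 in WT replicate 3 (other WT libraries 812.6 to 923.4). Ifit2 had 2961.5 in KO replicate 3, where the other KO libraries lay between 1140.5 and 1371.5. KO replicate 3 was thus apart in opposite directions for Ifit1 and Ifit2. Zbp1 had 1840.0 in KO replicate 1 (others 1269 to 1421), Irf2 7528 in KO replicate 4 (others 6334 to 6555) and Socs3 14073 in KO replicate 5 (others 8116 to 9249). Gvin1 had 6267.5 in WT replicate 3, where the other WT libraries lay between 3554 and 3953.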

How the results depend on the processing

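Of the 10 antiviral genes, 0 passed under each of the 20 alternatives run, and the lowest adjusted p was 0.504 (Ifit3, depth class as a term). Their median difference of 0.11 lay between 0.06 and 0.31 under other settings and between -0.03 and 0.19 with 1 library left out. Ifit1, Ifit3, Rsad2, Ifih1 and Ddx58 kept their direction throughout; among 200 differences of the 10 genes, 15 were on the other side of 0. In the 6 deeper libraries alone these were Isg15 (0.06), Oasl2 (0.31) and Mx1 (-0.23), as were Ifngr2 (0.0025), Irf1 (0.0035), Cxcl10 (0.18) and AA467197 (0.40). Oasl2 was at 8.2e-05 with the replicate block and 0.05 in limma-voom, Mx1 at -0.0023 with quantile normalization and -0.12 with depth class, and AA467197 at 0.01 with depth class; the cause was not tested. With 1 library left out, Ifit2 lay between -0.31 and 0.49, Isg15 between -0.35 and 0.03, Oasl2 between -0.33 and 0.08, Mx1 between -0.17 and 0.33, Irf7 between -0.03 and 0.29 and AA467197 between -0.40 and 0.24.

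The count over all genes was 46, and 0 with the replicate block, which drops KO replicate 5. Whether the replicate numbers pair libraries is not known. The count was 0 in the 6 deeper libraries, 25 in limma-voom, and 5 to 38 with 1 library left out. A planned count-model test was not run because of the floor of the values, and the planned fit with no further filter is the fit reported.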

Other observations

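The oligoadenylate synthetases, which make the second messenger that activates RNase L, had no member that passed the test between genotypes. Oas1a averaged 7513 ± 1085 normalized counts in KO and 8573 ± 592 in WT, Oas2 1143.5 ± 333 and 879.5 ± 279, Oas3 773 ± 279 and 918 ± 330, and Oasl1 785 ± 275 and 999 ± 254 (each KO, then WT; ± SD over 5 and 4 libraries; adjusted p by limma 0.638, 0.717, 0.864 and 0.744). Oas1b had between 27.9 and 312 in KO and between 1 and 289 in WT (log2 difference 2.58 with SE 1.21; limma adjusted p = 0.546).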
